A study of Mus musculus with 6 samples.

Results

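Solute carriers are membrane proteins that move ions, metals, vitamins, nucleotides and metabolites into and out of cells, mitochondria and the Golgi, and their genes carry the symbol Slc with a family number. The genes described here are the Slc genes outside 6 families (Slc1a, Slc2a, Slc3a, Slc7a, Slc16a and Slc38a) that carry mainly glucose, monocarboxylates and amino acids. Of 369 symbols starting with Slc and a digit, 306 remained after those families were left out, and 124 of them averaged 1 FPKM or more over the 6 libraries. FPKM, mapped fragments scaled by transcript length and library depth, is a level per length, so levels of different genes can be compared. The other 182 lay below that level, 40 of them at 0 in every library. The choice used the mean over all 6 libraries and no difference between groups. Some carriers of amino acids, peptides and taurine (families Slc6, Slc15, Slc36 and Slc43) belong to families that the choice keeps, so they are part of the 124.

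The cells were eosinophils, a granulocyte of the gut wall in health, isolated out of BALB/c mice without a mutation (wild type), from the lamina propria of their small intestine. There were 3 cultures kept without cytokine (untreated) and 3 with GM-CSF, a growth factor for myeloid cells, at 10 ng/ml, all for 4 hours, and each gave 1 library. Whether each culture had its own donor animals is not stated, and p-values therefore measure only how these cultures vary. Age, sex and purity are not given either.

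Each library rested on 0.820 to 1.32 gigabases of mapped sequence. Eosinophil genes were present: the surface lectin gene Siglec5, the files' symbol for Siglecf, averaged 170.1 FPKM untreated and 170.4 with GM-CSF, and the eotaxin receptor gene Ccr3 289.0 and 251.3. Of 9 eosinophil markers fitted, 4 fell and 1 rose, beside 14.2% lowered and 7.68% raised of all 10106 genes fitted. Il5ra fell from 25.1 to 11.2 FPKM, Alox15 from 460.6 to 157.0, Cebpe from 192.7 to 126.5 and the granule gene Epx from 6.62 to 4.27, while Gata1 rose from 51.6 to 65.9 (limma adjusted p from 5.08e-05 to 0.0372). The summed level of 10 eosinophil markers ran from 1502 to 1699 FPKM untreated and from 1139 to 1317 with GM-CSF. The summed level of 17 epithelial markers ran from 101.6 to 109.7 FPKM untreated and from 64.6 to 79.4 with GM-CSF. That of 7 T cell markers ran from 27.6 to 28.7 and from 14.9 to 17.6, and that of 7 B and plasma cell markers from 31.0 to 38.5 and from 16.7 to 17.7. For 11 macrophage and dendritic cell markers it ran from 135.3 to 153.5 and from 128.8 to 138.1, for 8 neutrophil markers from 1346 to 1461 and from 1042 to 1051 (mostly Retnlg, with Camp and Elane at 0 throughout), and for 8 mast cell markers from 8.31 to 20.9 and from 8.40 to 11.1 (Tpsb2 at 0 throughout). For 8 stromal and endothelial markers, mostly Pecam1, it ran from 151.9 to 168.9 and from 117.7 to 132.6, and for 5 erythroid markers from 0.0817 to 2.62 and from 0.101 to 7.19. The sums of the eosinophil list and of the epithelial, T cell, B cell, neutrophil and stromal lists were thus all lower in every GM-CSF library than in every untreated one, and their part in the falls of carrier genes below was not tested. In whole cultures, fewer cells of a type and less RNA per cell cannot be told apart.

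Different carrier families have different places in a cell. Ferroportin, the product of Slc40a1, exports iron across the cell surface, and Slc30 and Slc39 proteins move zinc in opposite directions. Most Slc25 proteins pass nucleotides, phosphate and cofactors through the inner mitochondrial membrane, and Slc35 proteins bring nucleotide sugars into the Golgi. Eosinophils are long known for a chemistry of halides, oxidants and lipid mediators.

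Start regions are shown for 4 of the genes that the results turn on. They are Slc24a3, which had the largest rise, Slc12a9 and Slc22a4, which had falls of over 0.5 on the log2 scale and a CACGTG motif, and Slc28a2, which among the 19 changed genes with a start region was the only one with a match to TTCNNNGAA, a motif that STAT factors bind. Each is 300 bases of RefSeq sequence on build GRCm38.p6 around a RefSeq start, and capitals mark the 2 motifs.
Slc24a3 (chr2:145167525-145167824, plus strand): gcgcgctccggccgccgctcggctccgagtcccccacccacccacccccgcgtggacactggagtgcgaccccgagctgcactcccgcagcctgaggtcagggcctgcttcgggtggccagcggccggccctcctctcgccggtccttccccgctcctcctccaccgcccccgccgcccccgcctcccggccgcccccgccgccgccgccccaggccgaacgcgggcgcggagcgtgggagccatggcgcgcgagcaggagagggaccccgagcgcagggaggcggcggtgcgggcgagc
Slc12a9 (chr5:137333533-137333832, minus strand): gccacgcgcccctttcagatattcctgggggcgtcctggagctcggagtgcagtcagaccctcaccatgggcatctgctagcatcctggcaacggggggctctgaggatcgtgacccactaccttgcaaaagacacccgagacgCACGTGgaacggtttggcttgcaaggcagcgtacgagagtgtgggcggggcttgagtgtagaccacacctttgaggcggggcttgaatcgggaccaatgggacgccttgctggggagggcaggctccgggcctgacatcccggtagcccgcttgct
Slc22a4 (chr11:54028055-54028354, minus strand): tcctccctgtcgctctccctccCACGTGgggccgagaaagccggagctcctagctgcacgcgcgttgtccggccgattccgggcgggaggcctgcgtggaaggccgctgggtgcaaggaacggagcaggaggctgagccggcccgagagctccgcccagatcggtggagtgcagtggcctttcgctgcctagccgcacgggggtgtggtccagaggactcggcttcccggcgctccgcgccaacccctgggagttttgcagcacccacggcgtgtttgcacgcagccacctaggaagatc
Slc28a2 (chr2:122426185-122426484, plus strand): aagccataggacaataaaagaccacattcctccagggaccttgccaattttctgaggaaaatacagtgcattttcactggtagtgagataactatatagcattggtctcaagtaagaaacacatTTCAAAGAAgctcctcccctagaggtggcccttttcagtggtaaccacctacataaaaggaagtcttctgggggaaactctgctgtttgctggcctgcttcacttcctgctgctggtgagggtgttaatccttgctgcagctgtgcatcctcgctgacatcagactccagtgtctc
The CACGTG of Slc12a9 lies 106 to 101 bases before the start its window is built on and that of Slc22a4 228 to 223 bases before it, and the STAT motif of Slc28a2 lies 126 to 118 bases before it. These starts are not the outer ends of the genes: that of Slc12a9 lies 6488 bases, that of Slc22a4 1936 bases and that of Slc28a2 78 bases inside the RefSeq gene span. Both CACGTG motifs are therefore within the gene spans, and which start these cells use was not tested. The Slc24a3 window has neither motif.

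Of the 124 genes, 93 matched the RefSeq start regions, with 125 windows. Of the changed genes, Slc24a6, Slc25a37 and Slc40a1 did not match. Both strands were searched and overlaps between motifs were not removed. TTCNNNGAA was in 6 windows (4.80%) against 8.30% of all 32851 windows, and CACGTG, which MYC, USF and TFEB proteins bind, in 17 (13.6%) against 7.15%. By gene, CACGTG was in 16 of the 93 matched genes. Among 19 changed genes with a window, 4 held it: Slc12a9, Slc22a4, Slc25a33 and Slc35a5. TGACNNNGC, the core of the antioxidant response element, was in 25 windows (20.0%) against 12.4%. By gene it was in 22 of the 93 and in 5 of the 19. TGCNCNC, the core of the metal response element, was in 76 (60.8%) against 51.0%. By gene it was in 63 of the 93 and in 14 of the 19. The members' windows had a median GC content of 62.0% against 52.7% in all windows, so they also differ in base composition, and a match is a run of letters, not a shown binding site.

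The level of the 124 genes was uneven. Slc40a1 averaged 715.1 FPKM, which ranked 82 among all 23283 symbols of the files, while the median of the 124 was 7.66 and 47 of them averaged under 5 FPKM. The next were Slc9a3r1 (130.9), an adaptor that holds transporters at the membrane, the adenine nucleotide carrier gene Slc25a5 (111.1), the choline carrier-like gene Slc44a2 (94.1) and the mitochondrial phosphate carrier gene Slc25a3 (92.2). Slc40a1 alone made up between 28.2% and 29.6% of the summed level of the 124 in untreated libraries and between 24.5% and 27.5% in GM-CSF libraries. At the lower edge, Slc39a10 (1.02) and Slc25a40 (1.03) lay just inside the level of 1 FPKM and Slc15a1 (0.993) and Slc10a1 (0.959) just outside it.

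**Figure D1:**
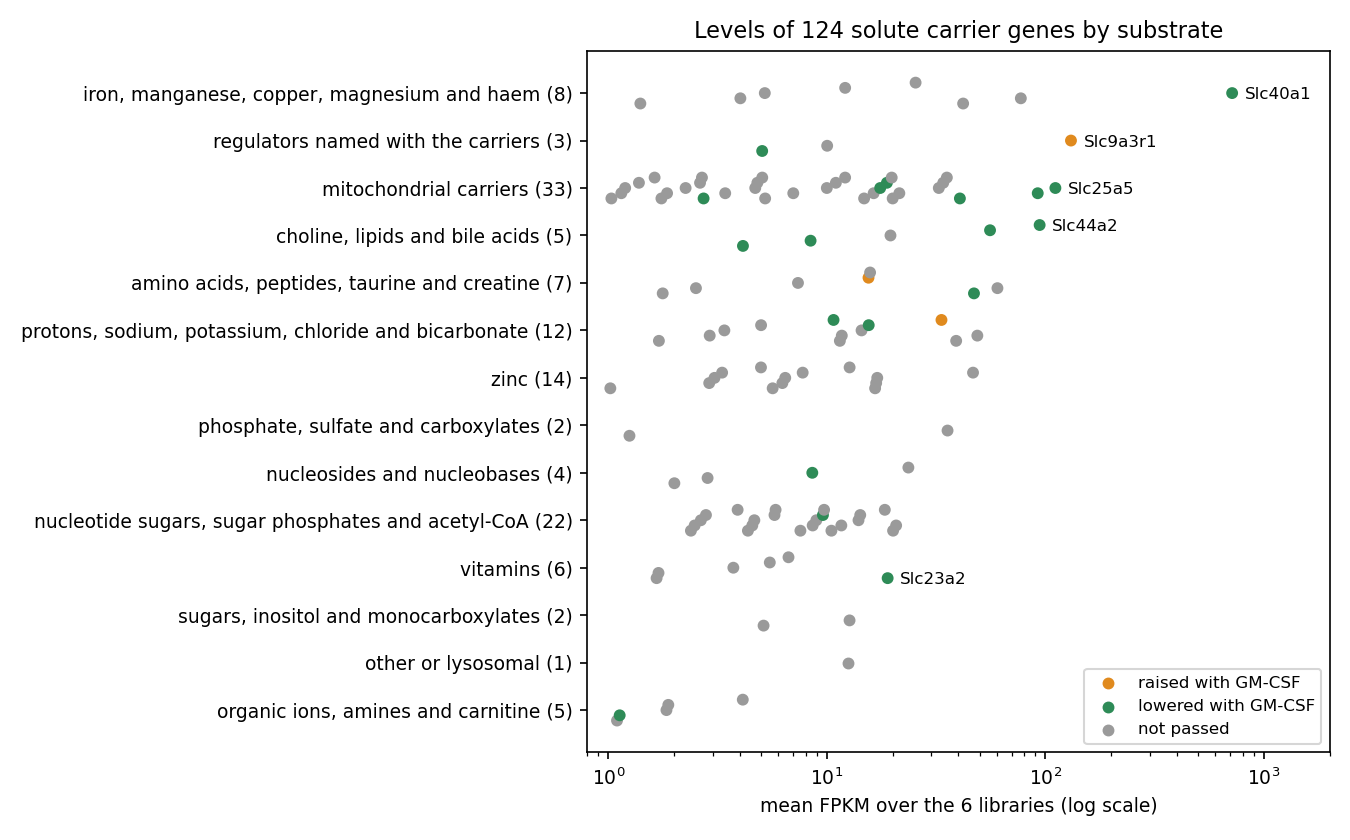
Mean FPKM over the 6 libraries (log axis) for each of the 124 solute carrier genes, by substrate, with the number of genes in brackets and the highest gene of a row named where it passed the test. Orange and green points passed the test; Slc40a1 at 715.1 FPKM stands apart from all others.

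GM-CSF changed a minority of these carriers, mostly by small amounts and mostly downward. Of the 124, 3 rose, 19 fell and 102 did not pass (limma, fitted over all 10106 genes averaging at least 1 FPKM, adjusted p under 0.05). That is 17.7% of the 124 genes against 21.9% of all genes, with 2.42% raised against 7.68% and 15.3% lowered against 14.2%. The 124 include 3 genes named after carriers that are not carriers themselves, Slc9a3r1, Slc9a3r2 and Slc4a1ap. Of these, 1 rose and 1 fell, and counts of changed carriers include them. The shares of all genes, 7.68% raised and 14.2% lowered, are also the comparison for each count of a substrate set or partner list below. The groups did not overlap for 47 of the 124 (37.9%) against 39.2% of all genes. The median log2 fold change was -0.06 against -0.05 for all genes, and only 6 of the 22 reached 0.5 in either direction. The excess of falls over rises was smaller with other scalings: median-of-ratios factors gave 6 rises and 12 falls, and quantile normalization 6 and 15. The rises added by both were Slc26a2, Slc35a2 and Slc52a3. Log2 fold changes are on the log2(FPKM + 1) scale, so that changes of genes with low levels are understated. SDs are over the 3 libraries of a group.

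**Figure D2:**
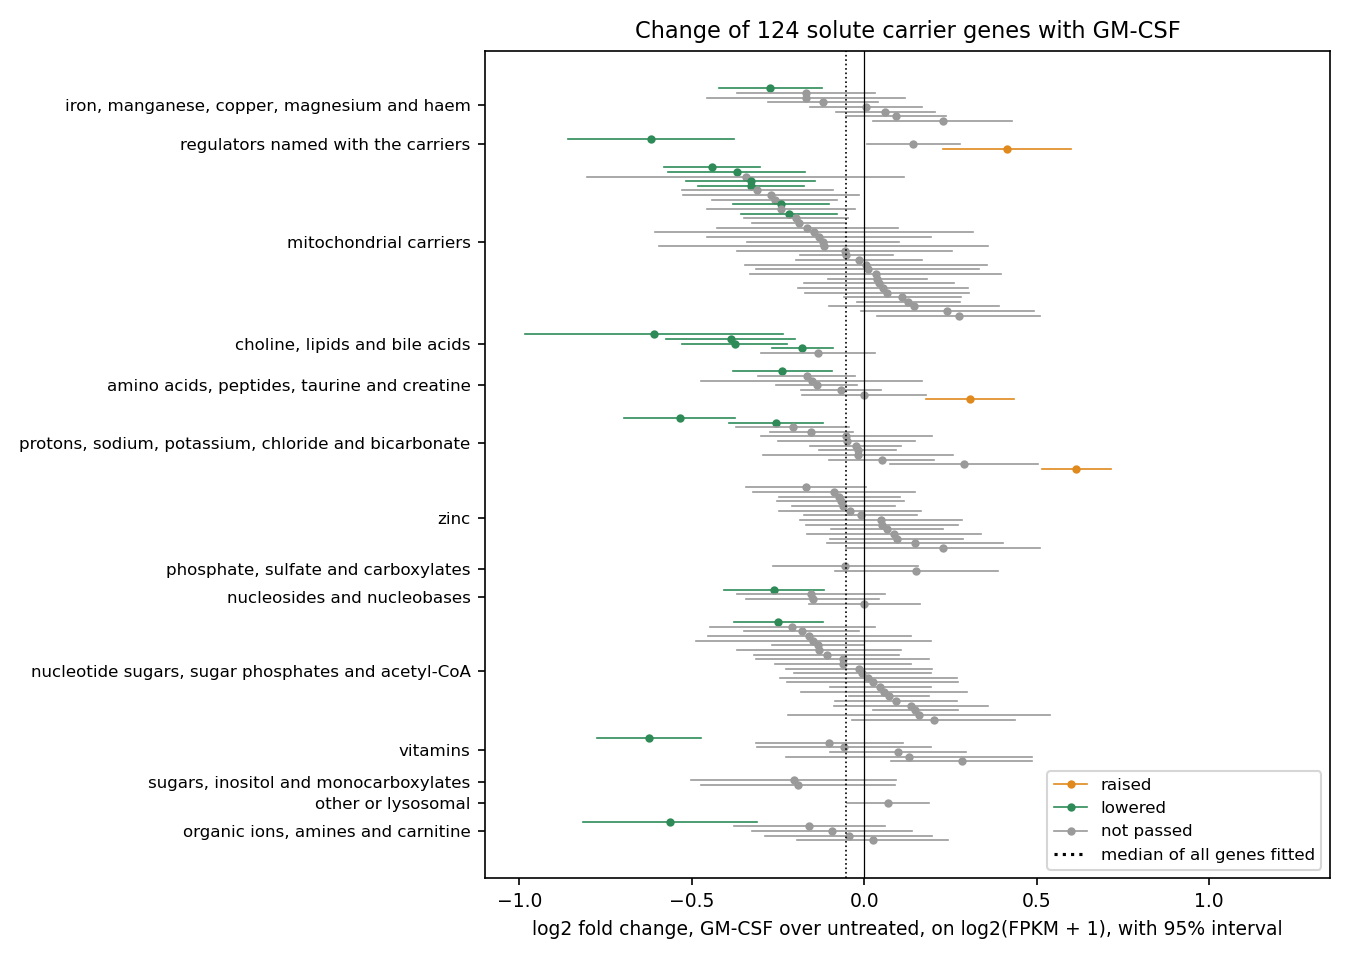
Log2 fold change of each of the 124 genes with its 95% interval (limma, on log2(FPKM + 1)), sorted within each substrate. The dotted line is the median of all genes, -0.05; the farthest rise is Slc24a3 at 0.62 and the farthest falls lie near -0.6.

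For carriers of protons, sodium, potassium, chloride, bicarbonate and calcium, 1 of 12 rose and 2 fell (median -0.04). Slc24a3 encodes NCKX3, an exchanger that removes calcium from the cell in return for sodium and carries potassium with it (chromosome 2, 145167775 to 145642166, GRCm38.p6). It measured 26.1, 27.0 and 25.5 FPKM in untreated and 40.1, 41.5 and 40.4 in GM-CSF libraries. All 3 GM-CSF libraries were higher than all 3 untreated ones, with means of 26.2 ± 0.766 and 40.7 ± 0.696 (log2 fold change 0.62, SE 0.04, limma adjusted p = 0.000167).

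Its family member Slc24a6 (RefSeq name Slc8b1), the sodium and calcium exchanger of mitochondria, lay at 16.3, 17.1 and 17.6 FPKM untreated and at 14.4, 13.3 and 14.5 with GM-CSF. Here the GM-CSF libraries were the lower ones (log2 fold change -0.25, SE 0.06, limma adjusted p = 0.0213). Its call ended without untreated replicate 2 (limma adjusted p = 0.0726) or 3 (0.0659), without GM-CSF replicate 1 (0.0506) or 2 (0.0596), and with median-of-ratios scaling (0.0539). The Slc24a6 call also ended with one FPKM sum and with the highest transcript. Whether Slc24a3 and Slc24a6 differed in their change was not tested. Slc12a9, an orphan member of the cation and chloride cotransporter family, fell from 12.6, 12.7 and 13.2 FPKM to 8.41, 7.98 and 9.35, without overlap (log2 fold change -0.54, SE 0.07, limma adjusted p = 0.00235).

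Slc4a2, a chloride and bicarbonate exchanger gene, averaged 39.3 and 38.8 FPKM with overlapping groups and did not pass (log2 fold change -0.02, 95% interval -0.13 to 0.09).

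The adaptors that are named after a sodium and proton exchanger went opposite ways. Slc9a3r1 encodes NHERF1, a scaffold that ties transporters to ezrin and the actin skeleton. It rose from 102.6, 111.5 and 122.5 FPKM to 151.3, 158.1 and 139.2, without overlap (log2 fold change 0.41, SE 0.08, limma adjusted p = 0.0112). Slc9a3r2, which encodes the related NHERF2, fell from 5.41, 7.06 and 6.56 to 3.78, 3.53 and 3.99 (-0.62, SE 0.10, limma adjusted p = 0.00640). With the highest transcript alone in place of the sum, the Slc9a3r2 call ended (limma adjusted p = 0.367). Slc9a3 itself, the exchanger they are named for, lay below 1 FPKM. The difference between these changes was not tested. Slc4a1ap, another gene named after a carrier it is not, averaged 9.48 and 10.6 FPKM and did not pass (limma adjusted p = 0.126).

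Of 8 carriers of iron, manganese, copper, magnesium and haem, 1 fell and 0 rose (median log2 fold change -0.06; 2 at an unadjusted p under 0.05). Slc40a1 (chromosome 1, 45908070 to 45926532) measured 813, 761 and 772 FPKM untreated and 628, 612 and 704 with GM-CSF. The GM-CSF libraries were all lower, with replicate 3 nearest to the untreated ones (means 782 ± 27.5 and 648 ± 49.0, log2 fold change -0.27, SE 0.06, limma adjusted p = 0.0234). This call is not secure: it ended in 5 of the 6 fits that left out 1 library, all but the one without GM-CSF replicate 3 (limma adjusted p from 0.0577 to 0.0805 in the 5), and under median-of-ratios scaling (0.0683) and quantile normalization (0.117). It also ended with no filter on low values (0.0582) and with libraries rescaled to one sum (0.0989). Macrophages are the classic ferroportin-rich cells, and of 4 macrophage and dendritic cell markers fitted, Csf1r (12.98 to 6.70 FPKM), Apoe (21.7 to 13.5) and Lyz2 (17.6 to 12.9) fell while Cd68 averaged 93.3 and 99.0. Their part in the Slc40a1 value was not tested.

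The other carriers of this set did not pass. Slc48a1, which moves haem out of the lysosome, averaged 74.7 and 79.6 FPKM (log2 fold change 0.09, 95% interval -0.05 to 0.24). Slc11a1, the NRAMP1 metal carrier of phagosomes, averaged 38.6 and 45.4 with overlapping groups (0.23, interval 0.03 to 0.43, limma adjusted p = 0.109). The copper carriers Slc31a2 (24.9 and 26.0) and Slc31a1 (5.56 and 4.83) overlapped as well, and Slc11a2, the DMT1 iron importer, averaged 1.55 and 1.25.

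Of 12 other iron genes fitted, 1 rose and 1 fell. Bach1, a repressor that senses haem, rose from 27.4 to 40.2 FPKM (log2 fold change 0.53, limma adjusted p = 0.00213). Tfrc, the transferrin receptor gene, fell from 9.04 to 6.85 (-0.36, limma adjusted p = 0.0169). The ferritin light chain gene Ftl1 (16732 and 18286 FPKM) and the haem oxygenase gene Hmox1 (2494 and 2557) were far more abundant and did not pass.

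Of 14 zinc carriers, 0 rose and 0 fell in the limma fit, and log2 fold changes ran from -0.17 to 0.23 (median 0.02). At an unadjusted p under 0.05, 0 of the 14 passed. Slc39a7, a zinc carrier of the endoplasmic reticulum, led at 47.5, 51.1 and 44.4 FPKM untreated and 45.8, 47.4 and 43.6 with GM-CSF (log2 fold change -0.06, 95% interval -0.21 to 0.09). Slc30a9 averaged 16.6 and 17.4 FPKM (0.07, interval -0.10 to 0.23). Changes within these intervals cannot be told from none. Some intervals reached farther, such as -0.05 to 0.51 for Slc39a13 and -0.34 to 0.01 for Slc39a14. The 3 fitted genes of zinc buffering and sensing did not pass either, and the metallothionein gene Mt1, the most abundant, averaged 49.1 and 61.1 FPKM (0.30, limma adjusted p = 0.0927).

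Of 33 genes of the Slc25 family, the mitochondrial carrier family and the largest set, 6 fell and 0 rose (median -0.12). Among the 6 is Slc25a17, whose product sits in peroxisomes. The 6 are 18.2% of the set, near the 14.2% of all genes that fell, and 63.6% of the set had a log2 fold change below 0 against 62.6% of all genes. Without untreated replicate 2 the count was 2. It was 3 without untreated replicate 1, with the replicate block, with median-of-ratios scaling, with one FPKM sum and with no filter on low values. Other settings gave more: 9 with transcripts of at least 200 nt, 8 with the robust prior and 7 of 19 with a mean of at least 5 FPKM. Without GM-CSF replicate 3, 1 rose and 4 fell. Slc25a5 encodes ANT2, which exchanges ADP for ATP across the inner membrane (chromosome X, 36795597 to 36798808). It fell from 120.0, 124.3 and 126.6 FPKM to 89.5, 101.9 and 104.1, without overlap (log2 fold change -0.33, SE 0.06, limma adjusted p = 0.0131). It has close paralogs, so its reads may be shared: Slc25a4, which encodes ANT1, averaged 1.74 and 1.51 FPKM. Slc25a3, the phosphate carrier that supplies ATP synthase, fell from 102.0, 101.2 and 96.5 to 90.1, 84.8 and 78.6 (-0.24, SE 0.06, limma adjusted p = 0.0270).

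Slc25a39, which brings glutathione into mitochondria, had the largest fall of the family on the log2(FPKM + 1) scale. It went from 46.4, 48.3 and 46.0 FPKM to 32.1, 34.0 and 36.8, without overlap (log2 fold change -0.44, SE 0.06, limma adjusted p = 0.00273). Slc25a37, or mitoferrin-1, which imports iron for haem and iron-sulfur clusters, fell from 3.48, 3.08 and 3.05 to 2.20, 2.13 and 2.43 (-0.37, SE 0.08, limma adjusted p = 0.0217). As a ratio of means its fall was the larger, 0.703 against 0.731 for Slc25a39. Its relative Slc25a28, mitoferrin-2, was more abundant and lay at 37.96, 38.3 and 39.5 untreated and 31.1, 36.0 and 29.4 with GM-CSF. Those groups did not overlap, but the gene missed the threshold (-0.26, limma adjusted p = 0.0535). Both mitoferrins and the glutathione carrier thus had lower group means with GM-CSF. In the whole set 63.6% of genes, and 62.6% of all genes, had a log2 fold change below 0.

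The pyrimidine nucleotide carrier gene Slc25a33 fell from 21.1 ± 1.71 to 16.6 ± 1.18 FPKM (log2 fold change -0.33, limma adjusted p = 0.0267). Slc25a17, whose product sits in peroxisomes, fell from 18.9 ± 0.449 to 16.1 ± 1.02 (-0.22, limma adjusted p = 0.0387). Without 1 library the calls of Slc25a3, Slc25a33 and Slc25a37 ended in 4 of 6 fits each and that of Slc25a17 in 5 of 6, while those of Slc25a5 and Slc25a39 held in all 6. The replicate block (replicate number as a term in the fit) ended those of Slc25a17 (limma adjusted p = 0.0607), Slc25a33 (0.0540) and Slc25a37 (0.0548). Median-of-ratios scaling ended those of Slc25a3, Slc25a17 and Slc25a33, and quantile normalization those of Slc25a17 and Slc25a37. One FPKM sum ended those of Slc25a3, Slc25a17 and Slc25a37, and no filter on low values those of Slc25a17, Slc25a33 and Slc25a37. The Slc25a17 call also ended with a constant prior and with the highest transcript. At the other end, with 0 rises in the limma fit, the nearest was Slc25a20, which takes acylcarnitines into mitochondria for fatty acid oxidation, at 19.3 and 23.6 FPKM (0.27, limma adjusted p = 0.103).

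Of 14 other genes of mitochondrial transport, 1 rose and 3 fell. The pyruvate carrier gene Mpc1 fell by 0.28 and the outer membrane channel gene Vdac2 by 0.23 on the log2 scale, while the calcium channel gene Mcu rose by 0.22 (limma adjusted p from 0.00610 to 0.0492).

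**Figure D3:**
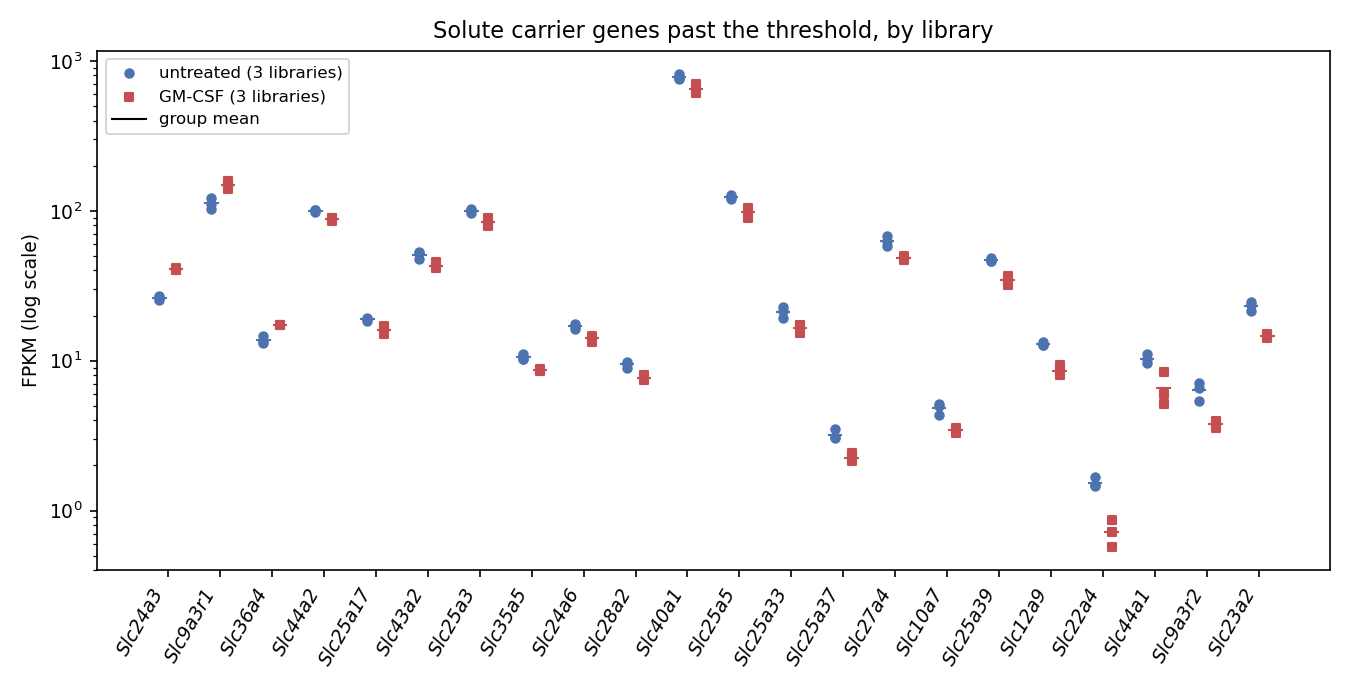
FPKM (log axis) of the 22 carrier genes past the threshold in each of the 6 libraries, ordered from the largest rise (Slc24a3) to the largest fall (Slc23a2), with bars at the group means. Groups do not overlap for any of the 22; the closest GM-CSF library of Slc44a1 lies at 8.45 FPKM.

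Vitamin carriers included the largest fall of the 124 on the log2(FPKM + 1) scale. As a ratio of means, that of Slc23a2 was 0.632, and Slc22a4 (0.467) and Slc9a3r2 (0.594) were lower. Slc23a2 encodes SVCT2, which takes up ascorbate, the reduced form of vitamin C, with sodium (chromosome 2, 132052496 to 132145320). It measured 24.6, 21.5 and 23.6 FPKM untreated and 15.2, 14.2 and 14.7 with GM-CSF. Every GM-CSF library was lower, and the means were 23.2 ± 1.62 and 14.7 ± 0.487 (log2 fold change -0.62, SE 0.06, limma adjusted p = 0.000918). Slc23a1, the other ascorbate carrier gene, averaged 1.75 and 1.64 with overlapping groups (-0.06, 95% interval -0.31 to 0.19). None of the other 5 vitamin carriers passed (limma; 1 of the 5 at an unadjusted p under 0.05). Slc52a3, a riboflavin carrier gene, was the nearest at 5.93 and 7.42 FPKM (0.28, limma adjusted p = 0.0600). It passed with median-of-ratios scaling and with quantile normalization. Of 10 fitted genes of vitamin use, 0 rose and 2 fell: the pyridoxal kinase gene Pdxk by 0.67 and the biotin ligase gene Hlcs by 0.47 on the log2 scale (limma adjusted p = 0.000687 and 0.0136).

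Carriers of choline, lipids and the bile acid family fell in 4 of 5 cases and rose in 0 (median -0.38), beside 14.2% of all genes lowered. The count was 1 without GM-CSF replicate 1 and 2 without untreated replicate 1, without untreated replicate 2, with one FPKM sum or with the highest transcript. Slc27a4 encodes FATP4, which drives fatty acid uptake by joining fatty acids to coenzyme A. It went from 68.4, 62.6 and 58.5 FPKM to 49.97, 48.4 and 46.8, without overlap (log2 fold change -0.38, SE 0.06, limma adjusted p = 0.00753). Slc44a1, a choline carrier of the cell surface and mitochondria, fell from 10.2, 9.67 and 11.1 to 5.16, 5.98 and 8.45. The last of these, GM-CSF replicate 3, lay between the other GM-CSF libraries and the untreated ones (-0.61, SE 0.16, limma adjusted p = 0.0350). The call held in just 1 of 6 fits without 1 library, the one without GM-CSF replicate 3. The call also ended with no filter on low values, with one FPKM sum and with the highest transcript.

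The fall of Slc44a1 was unequal over its 2 transcripts in the files. The transcript of 3102 nt measured 5.31, 4.69 and 4.99 FPKM untreated and 1.69, 1.497 and 3.03 with GM-CSF. That of 1938 nt measured 4.89, 4.98 and 6.07 against 3.47, 4.48 and 5.42, with overlap. The sources used here do not say how reads were divided between transcripts, and for Slc24a6 the same transcript of 2874 nt was listed at 13.4, 0.0318 and 10.7 in 3 untreated libraries, so transcript values are less secure than sums.

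Slc44a2 fell from 101.5, 97.7 and 100.8 FPKM to 86.0, 89.3 and 89.1, a small difference without overlap (-0.18, SE 0.04, limma adjusted p = 0.0155). Its call ended without GM-CSF replicate 1 (limma adjusted p = 0.0609), with median-of-ratios scaling (0.0601), with one FPKM sum (0.165) and with the highest transcript (0.166). Slc10a7, a member of the bile acid carrier family, fell from 4.95, 5.13 and 4.37 to 3.28, 3.51 and 3.54 (-0.39, SE 0.08, limma adjusted p = 0.0144). That call ended without untreated replicate 1 (0.0523), untreated replicate 2 (0.0563) or GM-CSF replicate 1 (0.0534, all limma adjusted p). Of 13 genes of choline and fatty acid activation, 1 rose and 4 fell. The carnitine palmitoyltransferase gene Cpt1a fell by 0.42 and Cept1, which completes choline and ethanolamine phospholipids, by 0.36, while the arachidonate-preferring ligase gene Acsl4 rose by 0.34 on the log2 scale.

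The organic ion carriers were low, and 1 of 5 fell. Slc22a4 encodes OCTN1, which takes up the antioxidant ergothioneine (chromosome 11, 53983115 to 54030040). It measured 1.47, 1.45 and 1.68 FPKM untreated and 0.717, 0.575 and 0.861 with GM-CSF, which is 0.467 times the untreated mean. The groups were far apart (log2 fold change -0.56, SE 0.11, limma adjusted p = 0.0109), although its lowest library rested on 1.44 kilobases of mapped sequence. Its mean of 1.13 FPKM reached the level of 1 through the untreated group alone, and all 3 GM-CSF libraries lay below it, so the choice of genes favoured a difference here.

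Among the 124 genes, 2 of the same family lie near Slc22a4 on the chromosome. Slc22a21 begins at 53949954 and ends 2782 bases before Slc22a4, and Slc22a5, the carnitine carrier gene, lies beyond it from 53864542 to 53891796. Slc22a21 averaged 1.08 and 1.11 FPKM (0.02, 95% interval -0.19 to 0.24) and Slc22a5 4.29 and 3.95 (-0.09, interval -0.33 to 0.14), both with overlapping groups. Whether Slc22a4 differed from them in its change was not tested.

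**Figure D4:**
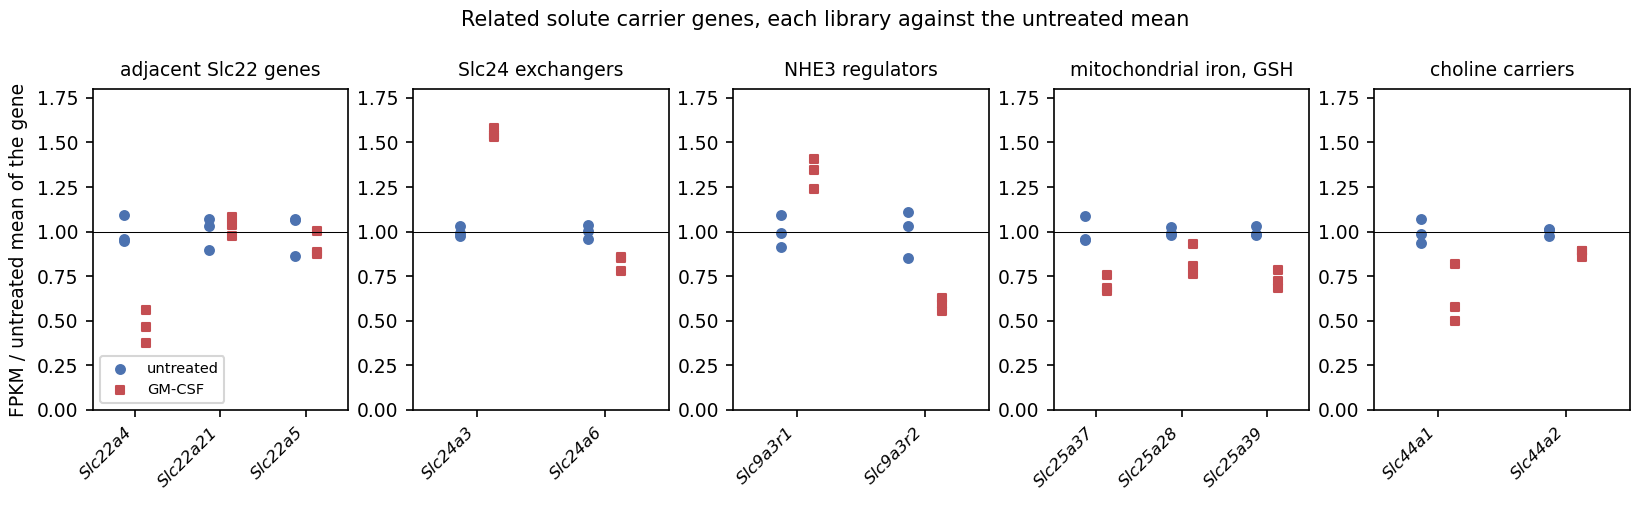
FPKM of each library divided by the untreated mean of the same gene, for 5 sets of related genes; circles are untreated and squares GM-CSF libraries. Slc22a4 drops while Slc22a21 and Slc22a5 stay near 1, Slc24a3 and Slc24a6 part, and so do Slc9a3r1 and Slc9a3r2.

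Nucleoside carriers fell in 1 of 4 cases. Slc28a2, which concentrates purine nucleosides with sodium, went from 8.96, 9.81 and 9.56 FPKM to 7.74, 7.99 and 7.38 (log2 fold change -0.26, SE 0.06, limma adjusted p = 0.0235), a call that ended in 4 of 6 fits without 1 library. The Slc28a2 call also ended with quantile normalization and with one FPKM sum. The equilibrative carrier gene Slc29a1 averaged 23.6 in both groups (0.00, 95% interval -0.16 to 0.16). Of 13 genes of nucleoside salvage fitted, 1 rose and 2 fell. Uck2, a uridine and cytidine kinase gene, rose from 3.12 to 10.7 FPKM (1.51, limma adjusted p = 6e-05). The thymidine kinase gene Tk2 fell by 0.34 and the adenine salvage gene Aprt by 0.28 on the log2 scale.

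Of 22 carriers of nucleotide sugars, sugar phosphates and acetyl-CoA, 1 fell and 0 rose (median -0.01), and log2 fold changes ran from -0.25 to 0.20. The gene that fell was Slc35a5, a Golgi carrier of sugar nucleotides, from 10.2, 10.3 and 11.02 FPKM to 8.68, 8.77 and 8.57 (-0.25, SE 0.05, limma adjusted p = 0.0187). The call ended in 4 of 6 fits without 1 library (limma adjusted p from 0.0549 to 0.0615 in the 4) and with one FPKM sum (0.0829). With median-of-ratios scaling and with quantile normalization 1 gene of the set rose, Slc35a2. It averaged 9.90 and 11.1 FPKM without overlap and did not pass in the fit reported (limma adjusted p = 0.0908). Of 19 fitted genes of nucleotide sugar synthesis, 1 rose and 3 fell. Cmas, which activates sialic acid, rose by 0.28, while Papss1, which makes activated sulfate, fell by 0.49 on the log2 scale.

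Of 7 carriers of amino acids, peptides and taurine from the families kept here, 1 rose, 1 fell and 5 did not pass (median -0.14). A log2 fold change below 0 was found in 6 of the 7, beside 62.6% of all genes. Slc36a4, a carrier of proline and tryptophan, rose from 14.6, 13.6 and 13.1 FPKM to 17.2, 17.3 and 17.3, without overlap (log2 fold change 0.31, SE 0.05, limma adjusted p = 0.00817). Slc43a2, which lets large neutral amino acids pass, fell from 53.4, 47.8 and 52.0 to 42.2, 41.5 and 45.7 (-0.24, SE 0.06, limma adjusted p = 0.0326), a call that ended in 4 of 6 fits without 1 library. The Slc43a2 call also ended with median-of-ratios scaling, one FPKM sum, no filter on low values, a constant prior and the highest transcript. The taurine carrier gene Slc6a6 averaged 63.2 and 57.4 FPKM and did not pass (-0.14, limma adjusted p = 0.0988).

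The smallest sets had no call in the limma fit. The phosphate carrier genes Slc20a1 (33.8 and 37.5 FPKM) and Slc20a2 (1.29 and 1.21) overlapped between groups, as did the sugar carrier genes Slc50a1 (13.6 and 11.8) and Slc45a4 (5.56 and 4.70). The lysosomal sialic acid carrier gene Slc17a5 averaged 12.1 and 12.8. 0 of these 5 passed at an unadjusted p under 0.05.

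Of 13 fitted genes that work with proton and chloride transport, 3 rose and 4 fell, beside 7.68% raised and 14.2% lowered of all genes. The carbonic anhydrase gene Car4 rose by 5.10 and the endosomal chloride and proton exchanger gene Clcn5, from 0.478 to 2.35 FPKM, by 1.18 on the log2 scale, while Car2 fell by 0.70. Car4 (untreated mean 0.997) and Clcn5 reached the level of 1 FPKM through the GM-CSF group alone, which favours a rise.

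Across the 19 alternatives run, 9 of the 22 calls passed in every fit that tested them: Slc24a3, Slc9a3r1, Slc36a4, Slc23a2, Slc12a9, Slc22a4, Slc25a39, Slc27a4 and Slc25a5. All 3 rises are among these. Slc22a4 was tested in 18 of the 19. It reached the level of 1 FPKM through the untreated group alone, so the choice of genes favoured its fall.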

How the data were processed

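Polyadenylated RNA of each culture was sequenced as a stranded library, per the labels' protocols. Tools named in the submitters' processing notes are Cufflinks, TopHat, TopHat2 and bcl2fastq 1.8.4, with mm10 as the mouse build. The sources used here do not say how reads were assigned to transcripts and strands. The deposited files hold 1 FPKM value and 1 coverage value per transcript, per the file headers, so the authors had already scaled for length and depth. Read counts were not used; mapped sequence was derived from the deposited coverage, transcript length and FPKM.

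FPKM was summed per symbol. Genes averaging at least 1 FPKM were fitted as log2(FPKM + 1) with limma 3.58.1 (trend) in R 4.3.3, 3 GM-CSF against 3 untreated libraries, with Benjamini-Hochberg adjustment over all 10106 genes and a threshold of 0.05. The procedure was tested on simulated data. Alternatives changed the pseudocount, filter, scaling, prior, transcript summing, replicate block and the libraries used.

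The members and gene lists were chosen with earlier results of these data known. Named were, per substrate, up to 6 genes past the threshold by size of change (or the 2 most abundant where none passed), changes of at least 0.5, the 5 most abundant genes, the 2 on each side of the level of 1 FPKM, and up to 3 changed genes per partner list. Other genes named, among them Slc25a20, Slc25a28, Slc11a1, Slc52a3, Mcu and Cmas, were chosen after their values were seen. Slc4a1ap was placed among the regulators after the files were seen. Gene positions are from RefSeq, which matched all 124 symbols (Slc24a6 as Slc8b1). Some genes that the rule would name are not reported here.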

Additional observations from a re-analysis of the deposited data

How the results depend on the processing

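Across the 19 alternatives the 3 rises kept their call in each, and 13 of the 22 calls ended in at least 1. Changed carriers numbered 12 with libraries rescaled to one FPKM sum (9 lowered), and median-of-ratios scaling gave 6 raised and 12 lowered, quantile normalization 6 raised. Median-of-ratios scaling moved the median of all genes from -0.05 to 0.00 and kept 15 of the 22 calls. Leaving out 1 library gave 12 to 20 changed carriers, 3 to 4 raised and 9 to 16 lowered. The lowest counts, 12 changed and 9 lowered, came when untreated replicate 2 or GM-CSF replicate 1 was left out, and 12 were lowered without untreated replicate 1 and without untreated replicate 3. The causes were not tested. Changed genes among all fitted ranged from 1515 without untreated replicate 2 upward, within 1.5 times the 2212 of the fit reported. With only the highest transcript of each gene, Slc24a6 reversed to 1.00 (limma adjusted p = 0.568). Same-numbered libraries of the 2 groups did not deviate together (correlations -0.03, 0.05 and -0.02). These values, from 3 libraries a group, cannot tell whether same-numbered cultures shared a source, which is not stated. With the replicate block the fit gave 20 changed carriers, 3 raised and 17 lowered, and kept 19 of the 22 calls. Low genes rest on little sequence, and with 3 libraries a group small changes may be missed.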

Other observations

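Among solute carriers below 1 FPKM, a fit with no filter on low values tested 142, of which 1 rose and 2 fell. In the filtered fit of 10106 genes, 7.68% rose and 14.2% fell. The shares of all genes in the fit with no filter are not given here, so the count is not read as a trait of these carriers. Slc39a8, which imports zinc and manganese, measured 0.208, 0.202 and 0.245 FPKM untreated and 0.437, 0.400 and 0.369 with GM-CSF (log2 fold change 0.20, limma adjusted p = 0.0186). Slc18a2, the vesicular monoamine carrier gene, measured 0.692, 0.636 and 0.665 against 0.270, 0.461 and 0.354 (-0.29, limma adjusted p = 0.0372). Slc39a5, a zinc carrier gene of epithelia, measured 0.270, 0.217 and 0.208 against 0, 0.112 and 0.0774 (-0.21, limma adjusted p = 0.0395).

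A pair of partner genes were listed at 0 in 1 GM-CSF library each. Upp1, a uridine phosphorylase gene, was listed at 78.9, 94.9 and 0 FPKM with GM-CSF and at 3.64, 3.26 and 3.395 untreated, and did not pass (limma adjusted p = 0.426). The ferritin heavy chain gene Fth1 was listed at 8.13, 0 and 11.4 with GM-CSF and at 7.70, 6.65 and 6.37 untreated. An exact 0 between such values can be a failed estimate, which was not tested.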
